A study of Mus musculus with 6 samples.

Results

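Genes of renal glucose and ammonia production, Pck1, Pck2, G6pc, Fbp1, Pcx, Slc37a4, Glud1, and Got1, were followed in the kidneys of fasted mice. Their probes were taken as the non-control probes whose gene name in the scanner files is 1 of these 8 symbols, which gave 14 of the 56605 probes on the array. Pck1, G6pc, Fbp1, and Pcx each had 1 probe, Pck2 and Slc37a4 had 2, and Glud1 and Got1 had 3. All 14 were tested and were well above background on all 6 arrays, and no spot was saturated.

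RNA of the left kidney came from 3 WT and 3 Selenbp1-KO male mice, hybridized in 1 color to 6 arrays of 1 slide. Both groups carry the strain label C57BL/6J, were 8 weeks old, and had been fasted for 20 h. The WT arrays are replicates 2, 3, and 4, and the Selenbp1-KO arrays are replicates 1, 2, and 3. Selenbp1-KO mice lack selenium-binding protein 1, and neither the deleted part of the gene nor the relation of the KO mice to the purchased WT mice is given in the sources used here. No unfasted kidney was on these arrays, so the response to fasting itself was not measured, and the array labels do not say whether samples of 1 group shared a litter.

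Besides the liver, the kidney is the organ that releases newly made glucose into blood during fasting, and the proximal tubule is where it does so. Lactate, glutamine, and glycerol supply the carbon. Glutamine first loses its nitrogen as ammonia, which buffers acid in the urine, and its carbon then leaves the citric acid cycle through oxaloacetate and phosphoenolpyruvate. Hormones, cyclic AMP, and acidosis are known to set the transcription of Pck1 and G6pc, while a large part of the pathway is also set by substrate supply and enzyme activity, which arrays do not read.

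Sequences are shown for the probes where it matters what is read. The brightest Pck2 probe (NM_028994, from base 2010 of the transcript, chr14:56167465-56167524 of mm9, plus strand) is given in lower case.
Pck2 probe: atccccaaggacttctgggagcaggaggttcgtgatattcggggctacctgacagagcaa
The other pair shows why the 3 Got1 probes are not 3 separate reads: the capitals mark 50 bases that 2 of the probes have in common. The first lies at chr19:43579114-43579173 (mm9, minus strand), and the second spans 2294 bases, chr19:43579124-43581417, so it crosses an intron.
Got1 probe of NM_010324: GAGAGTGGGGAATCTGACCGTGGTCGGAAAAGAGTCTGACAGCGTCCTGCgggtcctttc
Got1 probe of ENSMUST00000133325: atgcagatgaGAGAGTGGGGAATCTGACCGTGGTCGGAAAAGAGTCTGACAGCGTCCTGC

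Because cyclic AMP acts on this pathway, the 300 bases around the start of each gene in RefSeq (GRCm38.p6), 250 before it and 50 after, were searched on both strands for ACGTCA, the core that CREB binds. All 8 genes matched the RefSeq promoter table, with 11 listed starts, 3 of them for Slc37a4 and 2 for Pcx. The letters ACGTCA were found for Pck1 and Slc37a4, in 3 of the 11 promoters, against 7.51% of all 32851 promoters of that length. The 250 bases before the start are printed for these 2 genes, with the core in capitals, from 91 to 86 bases before the start of Pck1 (chr2:173152823-173153072, plus strand) and from 61 to 56 bases before the first listed start of Slc37a4 (chr9:44396696-44396945, plus strand), where it reads in the opposite direction as TGACGT.
Pck1 promoter: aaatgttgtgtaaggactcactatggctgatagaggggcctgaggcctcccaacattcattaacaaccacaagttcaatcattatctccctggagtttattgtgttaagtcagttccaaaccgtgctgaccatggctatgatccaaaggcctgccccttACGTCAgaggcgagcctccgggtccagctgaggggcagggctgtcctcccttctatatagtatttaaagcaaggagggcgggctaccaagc
Slc37a4 promoter: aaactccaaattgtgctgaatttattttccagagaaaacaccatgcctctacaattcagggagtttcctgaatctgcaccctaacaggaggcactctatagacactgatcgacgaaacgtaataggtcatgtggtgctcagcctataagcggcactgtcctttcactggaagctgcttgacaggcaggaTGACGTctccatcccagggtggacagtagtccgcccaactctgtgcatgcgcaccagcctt
The G6pc promoter (chr11:101367466-101367715, plus strand) is shown with its TATA box letters TATAAA in capitals, 29 to 24 bases before the start. TATAAA was also found for Slc37a4, so 2 of the 11 promoters had it, against 13.6% of all promoters.
G6pc promoter: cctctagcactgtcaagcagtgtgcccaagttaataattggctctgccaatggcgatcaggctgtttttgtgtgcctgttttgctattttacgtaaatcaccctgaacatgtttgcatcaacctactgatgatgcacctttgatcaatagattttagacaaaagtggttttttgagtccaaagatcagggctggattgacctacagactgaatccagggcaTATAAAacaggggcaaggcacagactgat
The letters GTAAACA, a core that FoxO factors bind, were in none of the 11 member promoters and in 3.65% of all. For ACGTCA and for GTAAACA, only these letters were searched, so their absence does not speak to other forms. CCAAT was in 6 of the 11, in Fbp1, G6pc, Got1, Pck2, and Pcx, against 37.4% of all. A match of letters is a description of these windows and does not show that a factor binds there.

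The question put to the arrays was whether loss of Selenbp1 changed the mRNA of these genes in the fasted kidney. By the criterion of the methods, an unadjusted limma p under 0.05, none of the 8 genes was altered in Selenbp1-KO kidneys. In the same comparison, 8.00% of all 37028 genes with 1 probe each were altered, 6.87% higher and 1.13% lower in Selenbp1-KO kidneys. None of the 14 probes was altered either, against 7.98% of 56097 probes. With the brightest probe of each gene, the differences, KO minus WT, lay between −0.16 and 0.070 on the log2 scale, and over all 14 probes between −0.33 and 0.15. The 95% confidence intervals of the 8 genes all contain 0. Their lowest bound was 0.714-fold, for G6pc, and their highest 1.27-fold, for Pck2. Changes inside a gene's own interval are not excluded with 3 arrays against 3. The count of altered genes depended on the processing. With quantile normalization 2 of 8 passed, against 9.10% of all genes. With the normalized values that the authors deposited 1 of 8 did, against 9.07%. With limma's trend and robust options 1 of 8 did, against 14.1%.

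Values below are log2 signals: the log2 of the scanner's background-subtracted signal minus the log2 of the 75th percentile of the same array, so 0 is the 75th percentile and a difference of 1 is a doubling. Array values are given in the order of the replicate numbers. Signals of different probes are not set against each other, because probes differ in how strongly they bind. In a whole kidney, fewer cells of a type and less RNA per cell cannot be told apart. Selenbp1 itself was at 7.07, 7.02, and 7.02 in WT and 4.13, 3.98, and 4.10 in Selenbp1-KO kidneys (adjusted p = 0.0021 from limma), so no label went against its genotype.

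**Figure D1:**
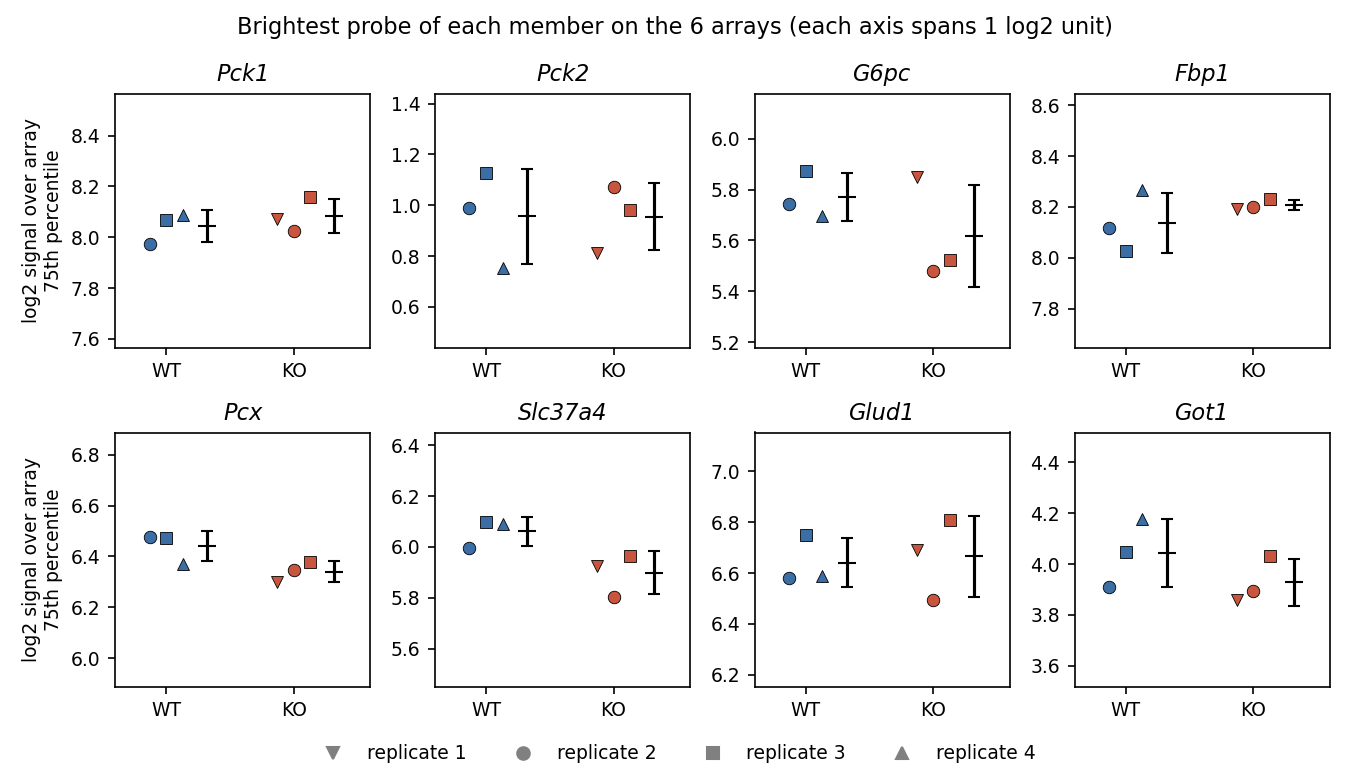
Log2 signal over the 75th percentile of the array (y axis, 1 log2 unit high in every panel) of the brightest probe of each of the 8 genes in 3 WT (blue) and 3 Selenbp1-KO (red) kidneys, with symbols for the replicate numbers and bars for the mean ± SD of 3 arrays. WT and Selenbp1-KO arrays overlap in every panel except Slc37a4, where the lowest WT array is at 6.00 and the highest Selenbp1-KO array at 5.96.

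The path from pyruvate begins with pyruvate carboxylase, encoded by Pcx, which makes oxaloacetate in the mitochondrion. Its probe (NM_001162946, chr19:4621610-4621669 of mm9) read 6.48, 6.47, and 6.37 in WT and 6.30, 6.35, and 6.38 in Selenbp1-KO. The groups met only through WT replicate 4 and Selenbp1-KO replicate 3, and the other 4 arrays were apart. KO minus WT was −0.10 (standard error 0.0956, 95% interval −0.33 to 0.13), a fold of 0.933, with an unadjusted p of 0.338 and an adjusted p of 0.635 from limma.

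Pck1 encodes the cytosolic phosphoenolpyruvate carboxykinase, the enzyme by which renal gluconeogenesis is most often followed. Its probe (NM_011044, chr2:172984307-172984366) was at 7.97, 8.07, and 8.09 in WT and at 8.07, 8.02, and 8.16 in Selenbp1-KO kidneys. The lowest value was that of WT replicate 2 and the highest that of Selenbp1-KO replicate 3, with the other arrays of both groups mixed between them. The difference of 0.040 (standard error 0.0993, 95% interval −0.20 to 0.28) had a p of 0.699, an adjusted p of 0.874 in limma, and an exact permutation p of 0.5, where 0.10 is the smallest that 3 arrays against 3 allow. As a fold, this is 1.03 with an interval from 0.869 to 1.22. Before scaling, the Pck1 signal ranged from 141329 to 201614 units in WT and from 124215 to 166651 units in Selenbp1-KO kidneys, which is the difference in overall brightness between arrays that the 75th percentile (477 to 751 units) removes.

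Pck2, the mitochondrial form of the same enzyme, was read by 2 probes, whose 95% intervals overlap. The brightest, whose sequence is printed above, read 0.99, 1.13, and 0.75 in WT and 0.81, 1.07, and 0.98 in Selenbp1-KO kidneys, with the groups fully mixed. Its difference was −0.00029 (standard error 0.140, 95% interval −0.34 to 0.34) with a limma p of 0.998, and its WT arrays spread by an SD of 0.19. The second probe (chr14:56168322-56168381, from base 2867 of the same transcript) read −3.37, −3.43, and −3.28 in WT and −3.53, −3.53, and −4.00 in Selenbp1-KO kidneys. All WT values of this probe were above all Selenbp1-KO values, and Selenbp1-KO replicate 3 was the lowest. Of all probes, 13.3% did not overlap between the groups. The probe was dim, at 53.4 to 69.7 units before scaling in WT and 36.5 to 48.9 units in Selenbp1-KO kidneys. The second probe differed by −0.33 (standard error 0.160, 95% interval −0.72 to 0.061), with a p of 0.0851 and an adjusted p of 0.286 in limma.

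Fbp1 encodes the fructose-1,6-bisphosphatase of liver and kidney, which opposes phosphofructokinase. Its probe (NM_019395, chr13:62966175-62966234, minus strand) was at 8.12, 8.03, and 8.26 in WT and at 8.19, 8.20, and 8.23 in Selenbp1-KO kidneys. The 3 Selenbp1-KO arrays were close together, with an SD of 0.019, the smallest of any group and gene, and they fell inside the WT range. Fbp1 differed by 0.070 (standard error 0.106, 95% interval −0.19 to 0.33), or 1.05-fold, with a limma p of 0.532 and an adjusted p of 0.779.

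The last step, release of glucose from glucose 6-phosphate inside the endoplasmic reticulum, needs the catalytic subunit encoded by G6pc and the glucose 6-phosphate carrier encoded by Slc37a4. G6pc (NM_008061, chr11:101238947-101239006) read 5.74, 5.87, and 5.69 in WT and 5.85, 5.48, and 5.52 in Selenbp1-KO kidneys. Selenbp1-KO replicates 2 and 3 were below every WT array, and Selenbp1-KO replicate 1 was above 2 of the 3 WT arrays, which gave the largest SD, 0.20. The difference of −0.15 (standard error 0.137, 95% interval −0.49 to 0.18) had a p of 0.311 and an adjusted p of 0.609 in limma. The interval as a fold runs from 0.714 to 1.14.

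Slc37a4 was the only gene of the 8 whose arrays did not overlap. Its brightest probe (NM_001293630, chr9:44210978-44211037) read 6.00, 6.10, and 6.09 in WT and 5.93, 5.80, and 5.96 in Selenbp1-KO kidneys. Slc37a4 thus differed by −0.16 (standard error 0.101, 95% interval −0.41 to 0.085), or 0.893-fold, with a p of 0.159 and an adjusted p of 0.419 in limma, and an exact permutation p of 0.1, the smallest possible. Of all 37028 genes, 14.1% did not overlap between the groups, so 1 of 8 is close to the background. The second probe, of the cDNA AK040077 (chr9:44205736-44205795), overlapped between the groups and had the opposite sign, 0.15 (standard error 0.167, with a limma p of 0.392). Whether AK040077 is part of the Slc37a4 mRNA is not known here.

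**Figure D2:**
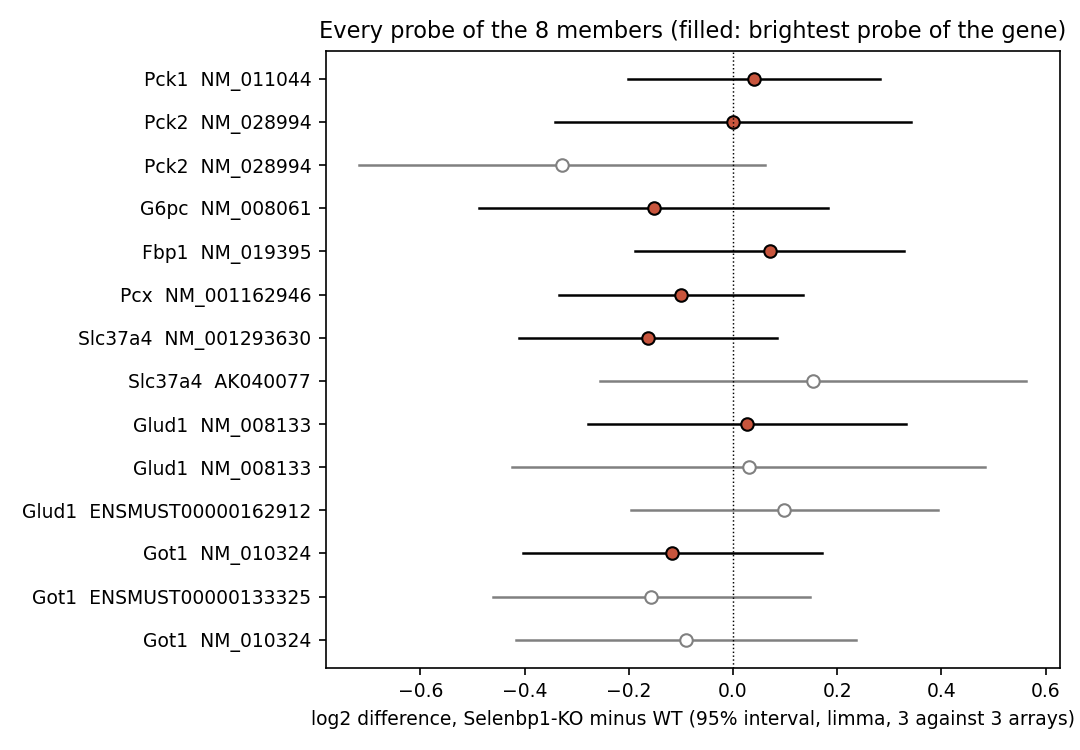
Log2 difference, Selenbp1-KO minus WT (x axis), with its 95% interval for all 14 probes, named by gene and transcript accession. Filled points are the brightest probe of each gene, open points the other 6 probes, and every interval crosses 0.

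Of the enzymes that handle glutamate, Glud1 encodes glutamate dehydrogenase, which releases ammonia in the mitochondrion. The brightest Glud1 probe (NM_008133, chr14:35157919-35157978) read 6.58, 6.75, and 6.59 in WT and 6.69, 6.50, and 6.81 in Selenbp1-KO kidneys. Both the lowest and the highest value were from Selenbp1-KO arrays, replicates 2 and 3. Glud1 differed by 0.026 (standard error 0.125, 95% interval −0.28 to 0.33), with a limma p of 0.842. The other Glud1 probes gave 0.030 for NM_008133 (chr14:35151947-35152006) and 0.098 for ENSMUST00000162912 (chr14:35142426-35142485), so the 3 probes had the same sign, none of them past the threshold.

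Got1 encodes the cytosolic aspartate aminotransferase, which turns aspartate carried out of the mitochondrion back into oxaloacetate. Its brightest probe (NM_010324, chr19:43574278-43574337, minus strand) was at 3.91, 4.05, and 4.18 in WT and at 3.86, 3.89, and 4.03 in Selenbp1-KO kidneys. The 2 lowest arrays were from Selenbp1-KO mice and the 2 highest from WT mice, with WT replicate 2 below Selenbp1-KO replicate 3. Got1 differed by −0.12 (standard error 0.118, 95% interval −0.40 to 0.17), with a limma p of 0.361. The 2 probes that share 50 bases differed by −0.091 and −0.16, with p values of 0.522 and 0.255, and are not independent of each other.

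Over the 8 genes, 3 differences were above 0 and 5 below, with a median of −0.050. The median over all 37028 genes was 0.13, and over the 18364 genes well above background on all arrays it was 0.019. Differences below 0 made up 31.6% of all genes and 44.9% of the genes well above background. The differences of all 8 were below the median of all genes, with distances from −0.056 for Fbp1 to −0.29 for Slc37a4, and those of 5 were below the median of the genes well above background. These counts describe the 8 genes, which were not drawn at random, and no test was made of them as a list.

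Single arrays moved several of the genes at once. WT replicate 3 was above the mean of the 6 arrays for 7 of the 8 genes and had the highest value for Pck2, G6pc, and Slc37a4. Selenbp1-KO replicate 2 was below the mean for 6 of the 8 and had the lowest value for G6pc, Slc37a4, and Glud1. Averaged over the 8 genes, these arrays deviated by 0.071 and −0.073, respectively, and the other 4 arrays by −0.024 to 0.023. The 2 differences of largest size, those of Slc37a4 and G6pc, thus rest partly on the same 2 arrays. Without WT replicate 3 the Slc37a4 difference was −0.15 and that of G6pc −0.10, and without Selenbp1-KO replicate 2 they were −0.12 and −0.083. Leaving out Selenbp1-KO replicate 1, the highest of its group for G6pc, moved the G6pc difference the other way, to −0.27, still not past the threshold. Without WT replicate 4, Got1 differed by −0.050.

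The scaling of the arrays changed a sign or a call for Pck1, Fbp1, Glud1, Pcx, and Slc37a4. With quantile normalization, which gives every array the same distribution and brings the median of all genes to 0.0037, all 8 differences were below 0, with a median of −0.13. Pck1 then differed by −0.11, Fbp1 by −0.083, and Glud1 by −0.090, none of them under the threshold. Slc37a4 differed by −0.26 with a limma p of 0.0085 (adjusted p = 0.432), and Pcx by −0.20 with a p of 0.0352 (adjusted p = 0.556). With that scaling, 2 of 8 genes thus passed the unadjusted threshold, both lower, against 9.10% of all genes, 3.86% lower. In the table of normalized values that the authors deposited, whose 6 columns have the same quartiles, Slc37a4 alone passed (−0.24, limma p of 0.0061, adjusted p = 0.415), against 9.07% of all genes, 3.71% lower. With limma's trend and robust options, the Slc37a4 difference was again under the threshold (p of 0.0224, adjusted p = 0.359), 1 of 8 genes, where 14.1% of all genes were, 1.97% lower. Direction is not settled by these arrays for any of the 8 genes, whose 95% intervals all contain 0. Signs turned in some alternatives for Pck1, Pck2, Fbp1, and Glud1. The filters, the flagged spots put back, the trend and robust options, and the t-test left every difference as it was. The other alternatives draw on the same 6 arrays. With these limits, Pcx, G6pc, Slc37a4, and Got1 were below 0 in all 18 alternatives. The values nearest 0 were −0.031 for Pcx and −0.076 for G6pc with a term for the slide side, −0.0044 for Slc37a4 as the mean of its probes, and −0.015 for Got1 with the replicate block. The lowest adjusted p of the 8 genes in any alternative was 0.313, that of G6pc with the replicate block.

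The position on the slide adds to this. WT replicates 2 and 3 lie on side 1, and WT replicate 4 and all Selenbp1-KO arrays lie on side 2, so in a fit with a term for the side, the 3 Selenbp1-KO arrays are set against 1 WT array. In that comparison, which is also the one within side 2, Pck2 differed by 0.20, Slc37a4 by −0.19, Got1 by −0.25, G6pc by −0.076, Glud1 by 0.077, Fbp1 by −0.057, Pcx by −0.031, and Pck1 by −0.0045. None of these passed the threshold. Over all genes, this fit turned the split between directions, with 903 genes higher and 1350 lower in Selenbp1-KO kidneys, against 2544 and 420 without the term. Side 1 holds WT arrays only and gives no comparison.

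**Figure D3:**
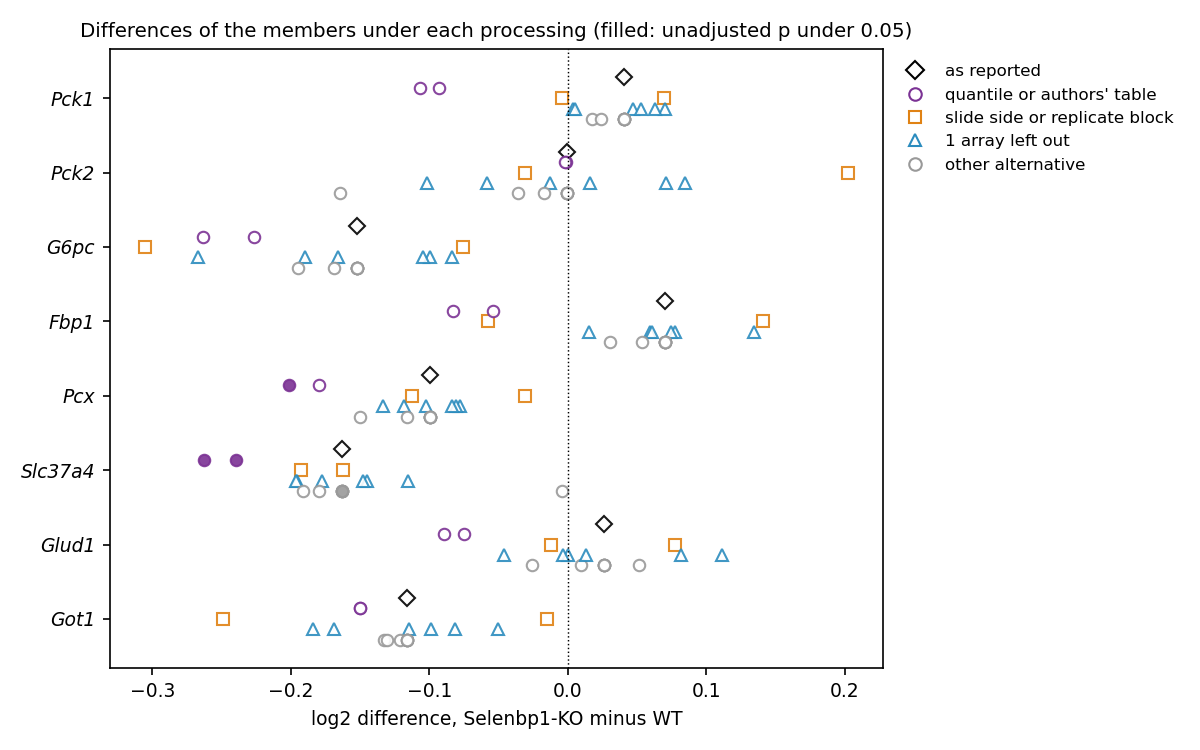
Log2 difference, Selenbp1-KO minus WT (x axis), of each of the 8 genes as reported (diamond) and under each of 18 alternatives, with filled symbols for an unadjusted p under 0.05. Pcx and Slc37a4 have filled symbols, and for Pck1, Pck2, Fbp1, and Glud1 symbols lie on both sides of 0.

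Further genes of the pathway were grouped by role, 58 in all, and all 58 were tested. Only Irs2, 1 of 58 (1.72%), passed the unadjusted threshold, against 8.00% of all genes. The groups did not overlap for 8 of the 58, against 14.1% of all genes, so separate groups in single genes below are near the background. Of 12 genes of the shared steps, 6 differences were above 0 and 6 below, with a median of 0.00039 and none past the threshold. Gapdh, glyceraldehyde-3-phosphate dehydrogenase, an enzyme used in both directions of the pathway, differed by 0.17 (standard error 0.149), with its lowest array in WT.

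Fuel entry and carriers, 18 genes of lactate, pyruvate, alanine, glycerol, and fructose use and of mitochondrial transport, had a median difference of 0.015 and none past the threshold. Ldhb, the lactate dehydrogenase subunit that favors pyruvate, differed by 0.036 (standard error 0.0983). Mpc2, a subunit of the mitochondrial pyruvate carrier, read 5.99, 6.10, and 6.20 in WT and 6.44, 6.28, and 6.35 in Selenbp1-KO kidneys. Its groups did not overlap, and its difference of 0.26 (standard error 0.109) had a p of 0.0527 in limma. Mpc2 was under the threshold with quantile normalization, the authors' values, normexp background correction, and the trend and robust options. The filter for probes well above background, the t-test, and leaving out WT replicate 4 also brought it under, and the remaining alternatives did not. Mpc2 was chosen after its values were seen. Khk, ketohexokinase, which phosphorylates fructose, read 7.41 to 7.58 in WT and 7.60 to 7.65 in Selenbp1-KO kidneys. The groups of Khk did not overlap, and its difference of 0.12 (standard error 0.0989) had a p of 0.269 in limma.

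Ammonia production and excretion, 14 genes, had a median of 0.0028 with 7 above and 7 below 0. Slc4a4, the sodium bicarbonate cotransporter of the basolateral membrane, differed by −0.17 (standard error 0.120). Ogdh, the oxoglutarate dehydrogenase subunit, differed by −0.079 (standard error 0.0923), and its groups did not overlap. Rhbg, an ammonia channel of the collecting duct, read 2.50, 2.65, and 2.48 in WT and 2.93, 2.78, and 2.72 in Selenbp1-KO kidneys. Its groups were apart, and its difference of 0.26 (standard error 0.112) had a p of 0.0576 in limma. Rhbg was under the threshold with quantile normalization, the authors' values, and the trend and robust options. The filter for probes well above background and the t-test also brought it under, and the remaining alternatives did not. Rhbg was chosen after its values were seen. Slc25a18 was not well above background on any array.

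Regulators, 14 genes of hormone signaling and transcription, were the group with the most differences below 0, 11 of 14, and a median of −0.14. Differences below 0 made up 31.6% of all genes and 44.9% of the genes well above background. No test was made of the regulators as a list. Irs2, the insulin receptor substrate, read 2.16, 2.24, and 2.44 in WT and 2.01, 2.05, and 1.82 in Selenbp1-KO kidneys. All 3 Selenbp1-KO arrays were below all WT arrays, and the difference of −0.32 (standard error 0.126) had an unadjusted p of 0.0420 and an adjusted p of 0.279 in limma. Without WT replicate 3 or 4, or without any 1 of the 3 Selenbp1-KO arrays, Irs2 was no longer past the threshold. Hnf4a, a nuclear receptor of the proximal tubule and liver, differed by −0.045 (standard error 0.103), and Pth1r, the parathyroid hormone receptor, by 0.14 (standard error 0.126). With quantile normalization 13 of the 14 differences were below 0, against 48.0% of all genes, with a median of −0.15. With the replicate block 9 were, against 28.8% of all genes, with a median of −0.052. With probes averaged within genes 9 were, against 28.3% of all genes, with a median of −0.083.

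**Figure D4:**
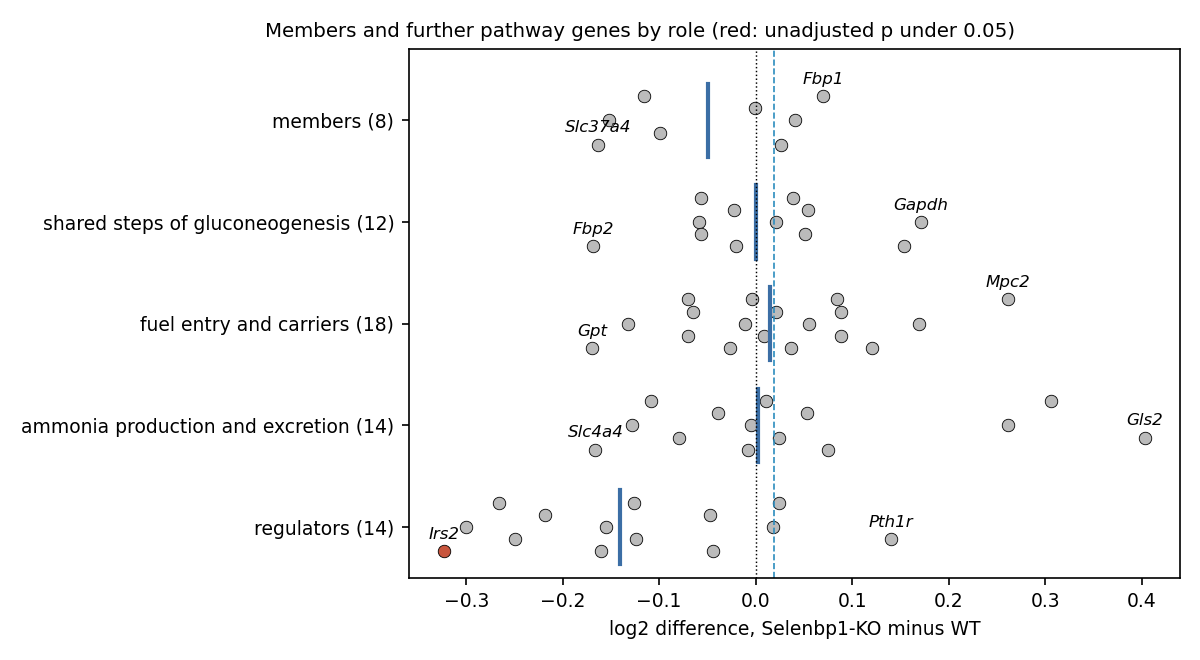
Log2 difference, Selenbp1-KO minus WT (x axis), of the 8 members and of 58 further genes in 4 roles, 1 point per gene, with the median of each group as a blue bar and the median of genes well above background (0.019) as a dashed line. Irs2 is the only red point, and the names mark the lowest and highest gene of each row.

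The scaling also moved these counts: with quantile normalization 13 of the 58 genes passed the unadjusted threshold, 11 of them lower and 2 higher, against 9.10% of all genes, 3.86% lower. With the authors' values 12 did, 10 of them lower, against 9.07% and 3.71% lower. Foxo1 and Sirt1, a transcription factor and a deacetylase that act on gluconeogenic genes, were among both sets of lower genes. In the 75th percentile scaling, they differed by −0.16 and −0.22, with p values of 0.160 and 0.101 in limma. Both were named after their values were seen.

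Markers of the cells these genes belong to were read beside them. None of 10 proximal tubule markers passed the threshold, and the log2 of the summed level of the 9 with a value on every array was 9.60 to 9.87 in WT and 9.73 to 9.77 in Selenbp1-KO kidneys. The tenth, Slc27a2, had its spot left out as an outlier on WT replicate 3. Of 8 liver markers none passed, and the log2 of their summed level was 6.55 to 6.67 in WT and 6.49 to 6.68 in Selenbp1-KO kidneys. Most of that sum was Serpina1a, which read 6.34, 6.19, and 6.21 in WT and 6.17, 6.11, and 6.24 in Selenbp1-KO kidneys. The sum thus says little of the other liver markers. Of the 8 liver markers, 5 were well above background on all 6 arrays, and Cyp7a1 and Cps1 on none. Alb, albumin, read 0.87, 0.81, and 0.87 in WT and −0.80, 1.64, and 2.16 in Selenbp1-KO kidneys, so its Selenbp1-KO arrays lay on both sides of the WT arrays. For 3 other cell types, several markers passed the unadjusted threshold, all of them higher in Selenbp1-KO kidneys and each with an adjusted p of 0.279 in limma. These were 4 of 6 for macrophages, 3 of 5 for fibroblasts, and 3 of 4 for red blood cells, against 8.00% of all genes. The log2 of the summed level was 3.42 to 3.62 in WT and 3.69 to 3.82 in Selenbp1-KO kidneys for macrophages. Most of that sum was Csf1r, which did not pass and overlapped between the groups. The summed level was 4.28 to 4.68 in WT and 4.98 to 5.36 in Selenbp1-KO kidneys for fibroblasts. For red blood cells, it was 8.01 to 8.43 in WT and 8.50 to 9.07 in Selenbp1-KO kidneys. Hba-a1 made up most of the red blood cell sum, and Dcn most of the fibroblast sum. Of the other lists, 1 of 10 markers passed for distal tubule and collecting duct and 1 of 5 for glomerulus. None passed of 5 for endothelium, 7 tested for adrenal gland, and 5 for fat tissue. Fat tissue markers still varied widely between arrays, with a median difference of 0.74. The log2 of their summed level was 1.83 to 3.52 in WT and 2.24 to 4.92 in Selenbp1-KO kidneys. Adipoq, Plin1, Cidec, and Ucp1 were highest on Selenbp1-KO replicate 2, and Lep on Selenbp1-KO replicate 1. The part of these cells in the differences of the 8 genes was not tested.

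The genes whose pattern over the 6 arrays was closest to that of Pck1 were Fndc3b, Hpn, and Hoxd8, with a root mean square distance of 0.0105 to 0.0127 on the log2 scale, among 18360 genes well above background on all arrays. Pck1 itself deviated from its own mean by 0.0565 in the same measure. For G6pc, which deviated by 0.149, the closest were Slmap, the transcript listed as NAP113539-1, and Arhgap32, at 0.0318 to 0.0463. With 6 arrays and this many genes searched, such close patterns are only a description.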

How the data were processed

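RNA of 3 WT and 3 Selenbp1-KO kidneys was measured on 6 one-color Agilent arrays, 1 per animal as labeled. The authors deposited the Feature Extraction output of each array: intensity per spot, background-subtracted by the software, not scaled between arrays, with a p-value per spot against its background. The submitters' notes name version 9.5.1.1, and the file headers 10.7.1.1. The authors also deposited a table of normalized intensity per probe. Its columns share their quartiles and keep the rank order of the scanner values.

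Processed signals were put on the log2 scale, and the 75th percentile of 59305 non-control spots was subtracted within each array. Spots flagged as outliers were left out, and spots of a probe were averaged. Probes were kept if their detection p was under 0.05 on any array, and tested with limma (version 3.58.1; R 4.3.3; lmFit, eBayes, two-sided), and p-values were adjusted over all 56097 probes by the Benjamini–Hochberg method. As in the methods, an unadjusted p under 0.05 was the threshold. The probe with the highest mean over all arrays stood for its gene, which gave 37028 genes. Permutation tests were exact and two-sided. The accessions of 32994 probes were named through RefSeq (GRCm38.p6), 1535 with a new name, none of them a probe of the 8 genes. Probe coordinates are those of the files (mm9). Exons and untranslated parts were not assigned, because no annotation of that build was used here. The code of the comparison was run on simulated arrays with independent values and added differences far larger than those of the 8 genes. That run does not show whether small differences can be found, or what shifts shared by an array or slide side do.

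The 8 genes and all lists were chosen with earlier results of these data known. Named were the 8 genes with every probe, further pathway genes under the threshold, the 2 of each role with the highest mean signal among the rest, and for Pck1 and G6pc the 3 genes nearest in pattern. One gene of the shared steps that this rule names is not reported here. The alternatives were scaling by the median of each array, quantile normalization, normexp background correction (offset 50), the authors' table, the trend and robust options of limma (statmod 1.5.0), and the methods' t-test. Probes were also restricted to those well above background throughout 1 genotype, or left unfiltered, and flagged spots were put back. Further fits had a term for the slide side or the replicate number, left out 1 array at a time, or took the mean over the probes of a gene. WT and Selenbp1-KO arrays share the replicate numbers 2 and 3 only. The correlation of same-numbered arrays' deviations from their group means was 0.17 and 0.19, and that of the other pairs −0.33 to 0.19, so the numbers were not taken to pair the animals. The number of arrays limits the precision.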

Additional observations from a re-analysis of the deposited data

How the results depend on the processing

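In 144 recomputed differences of the 8 genes, 124 kept their direction and their side of the threshold. Among the 144 are the filters, the flagged spots put back, the trend and robust options, and the t-test. These settings left each difference as it was and moved only the p, so their kept direction adds nothing. With quantile normalization 2 of the 8 genes passed the unadjusted threshold (Slc37a4 −0.26, Pcx −0.20), with the authors' values 1 (Slc37a4 −0.24), and with limma's trend and robust options 1 (Slc37a4 −0.16, p = 0.0224). Without any 1 array the count was 0 each time. Signs turned for Pck1 with quantile normalization (−0.11), the authors' table (−0.093), and the slide side as a block (−0.0045), and for Fbp1 in the same settings (−0.083, −0.054, −0.057). For Glud1 they turned with quantile normalization (−0.090), normexp (−0.026), the authors' table (−0.075), and the replicate block (−0.012), and ran from −0.046 to 0.11 without 1 array. Pck2 gave 0.20 with the side block and −0.10 to 0.085 without 1 array. The mean of all probes brought Slc37a4 to −0.0044 and Pck2 to −0.16. The causes were not tested.

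The count over all genes, 2964, was 9756 with median scaling, 5213 with trend and robust options, 12286 with the replicate block, and 1294 (without WT replicate 2) to 11812 (without WT replicate 4) when 1 array was left out. Leaving out WT replicate 3 gave 1689, and leaving out Selenbp1-KO replicate 2 gave 1803. Under the replicate block, 0 of the 8 genes passed, G6pc differed by −0.31, and 1 of the 58 further genes passed, Gls2. Of these 58, the count of 1 became 13 with quantile normalization (9.10% of all genes passed), 12 with the authors' table (9.07%), 8 with trend and robust options (14.1%), 6 with the methods' t-test (7.72%), 4 with the slide side as a block (6.08%), 3 with normexp (11.8%), 3 when only probes well above background were kept (10.4%), and 0 to 4 without 1 array. What signal over background limits was not tested. The second probes of Pck2 and Slc37a4 were dim, with SDs of 0.27 and 0.29 in Selenbp1-KO kidneys.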
